A study of Mus musculus with 30 samples.

Results

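The genes described here are 9 synaptic adhesion genes, the neuroligins Nlgn1, Nlgn2 and Nlgn3, the neurexins Nrxn2 and Nrxn3 and the teneurins Tenm1, Tenm2, Tenm3 and Tenm4. They were chosen by name out of 24421 genes listed for the 30 libraries. No measured value entered the rule, but earlier results of these data were known. All 9 passed the filter on low values (3 or more libraries at 1 RPM or above), as did 15824 genes in all. RPM here is the deposited normalised read count divided by 1 constant common to all libraries.

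The libraries came from bulk RNA of mouse brain tissue taken on postnatal day 70. The 28 tumours, labelled glioblastoma of the cortex, carried mCherry (a fluorescent protein, the control) or EGFR, the receptor of epidermal growth factor. The receptor was the wild-type form (3 libraries) or had 1 of 6 substitutions: A289I (5 libraries), A289V (4), R108G (3), R108K (4), R222C (3) and T263P (3). The mCherry group held 3 libraries, and 2 libraries came from the cortex of wild-type mice without a tumour. How the tumours were started, the promoter that drove mCherry or EGFR, the species of the EGFR sequence, the strain and any further allele shared by all tumour groups are not given in the sources used here. The series text speaks of several mice per variant, and no label ties a library to an animal, so p-values measure the spread between these libraries.

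Neuroligins are postsynaptic membrane proteins whose outer domain binds presynaptic neurexins, and the pair aligns the transmitter release site with the receptors opposite to it. Teneurins are large membrane proteins that bind latrophilins (Adgrl genes) and FLRT proteins across the synapse and guide the matching of axons with their targets. In brain tumours neuroligin-3 is known as a protein that neurons and oligodendrocyte precursor cells shed on neuronal activity and that promotes the growth of glioma cells. In bulk tissue, fewer cells of a type and less RNA per cell cannot be told apart.

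The start sites of 7 of the 9 genes were matched in RefSeq (GRCm38.p6), with 11 windows of 250 bases before a start; Nlgn3 and Nrxn2 were not matched. One window per family is shown for genes whose levels are compared below: Nlgn2 varied least between tumours, Nrxn3 varied most, and Tenm4 rose in 1 receptor group. Each runs 5′ to 3′ to the base before the start, and capitals mark the CG dinucleotides.
Nlgn2 (chr11:69837785-69838034, minus strand): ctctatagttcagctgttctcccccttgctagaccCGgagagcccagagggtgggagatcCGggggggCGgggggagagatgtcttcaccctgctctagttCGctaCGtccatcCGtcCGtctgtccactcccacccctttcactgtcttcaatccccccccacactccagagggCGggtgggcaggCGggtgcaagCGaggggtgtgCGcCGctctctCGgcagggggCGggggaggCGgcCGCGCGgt
Nrxn3 (chr12:89812233-89812482, plus strand): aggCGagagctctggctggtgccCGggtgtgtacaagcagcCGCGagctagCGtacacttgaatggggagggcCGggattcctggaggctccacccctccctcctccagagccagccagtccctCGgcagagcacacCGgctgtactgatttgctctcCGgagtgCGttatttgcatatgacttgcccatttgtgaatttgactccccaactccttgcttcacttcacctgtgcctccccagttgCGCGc
Tenm4 (chr7:96211421-96211670, plus strand): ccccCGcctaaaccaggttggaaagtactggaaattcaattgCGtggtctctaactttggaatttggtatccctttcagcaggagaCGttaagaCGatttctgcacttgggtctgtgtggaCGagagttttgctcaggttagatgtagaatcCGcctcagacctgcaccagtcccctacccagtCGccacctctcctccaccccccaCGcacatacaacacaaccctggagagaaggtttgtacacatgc
The Nlgn2 window held 18 CG dinucleotides and 67.6% G or C, and 80.3% of the 32851 promoters in the table had no more CG than that. The window of the third Nrxn3 start, the most downstream of 3, held 12 (68.5% of promoters had no more), and that of the second Tenm4 start 8 (59.7%). GGGCGG, the letters bound by Sp1-type factors, stood 3 times in the Nlgn2 window on either strand and in none of the other member windows, against 32.7% of all promoters. The cyclic AMP response element TGACGTCA was found in 1 of the 11 windows, that of Tenm3 (1.55% of promoters), and TTCAGCACC, part of the element of the neuronal repressor REST, in 1, that of the second Nlgn1 start (0.301%). The TATA letters TATAAA stood in 1, that of Tenm1 (12.4%). These matches are letters in a window, not sites shown to be bound. Of the starts named here only that of Nlgn2 is the outermost annotated base of its gene. The others lie inside their annotated genes, that of Tenm1 at 43274784 with the gene beginning at 43429126 (minus strand). Their windows may thus hold inner sequence of the gene.

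The libraries held 2784129 to 24475215 reads, so that 1 read was worth 0.0387 to 0.383 RPM. The library numbers in the labels fell in 3 ranges (below 20 with 7 tumours, 20 to 37 with 12 tumours and both cortex libraries, above 37 with 9 tumours). Egfr lay at 11.3 to 12.7 RPM in cortex, 22.1 to 35.4 RPM in the mCherry tumours and 52.1 to 2790 RPM in all receptor tumours but 1: R108G library 1, labelled with a receptor form, had 17.5 RPM. Met reached 3853 to 6283 RPM in mCherry library 2 and in libraries 1 and 2 of EGFR wild type, and at most 437 RPM elsewhere. Summed over 20 neuron markers, cortex had 18664 to 18861 RPM and the tumours 503 to 13886 RPM; the highest 2 tumours were A289V libraries 1 and 2, and no neuron marker was without reads in any group. Several results below are given with and without these libraries.

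**Figure D1:**
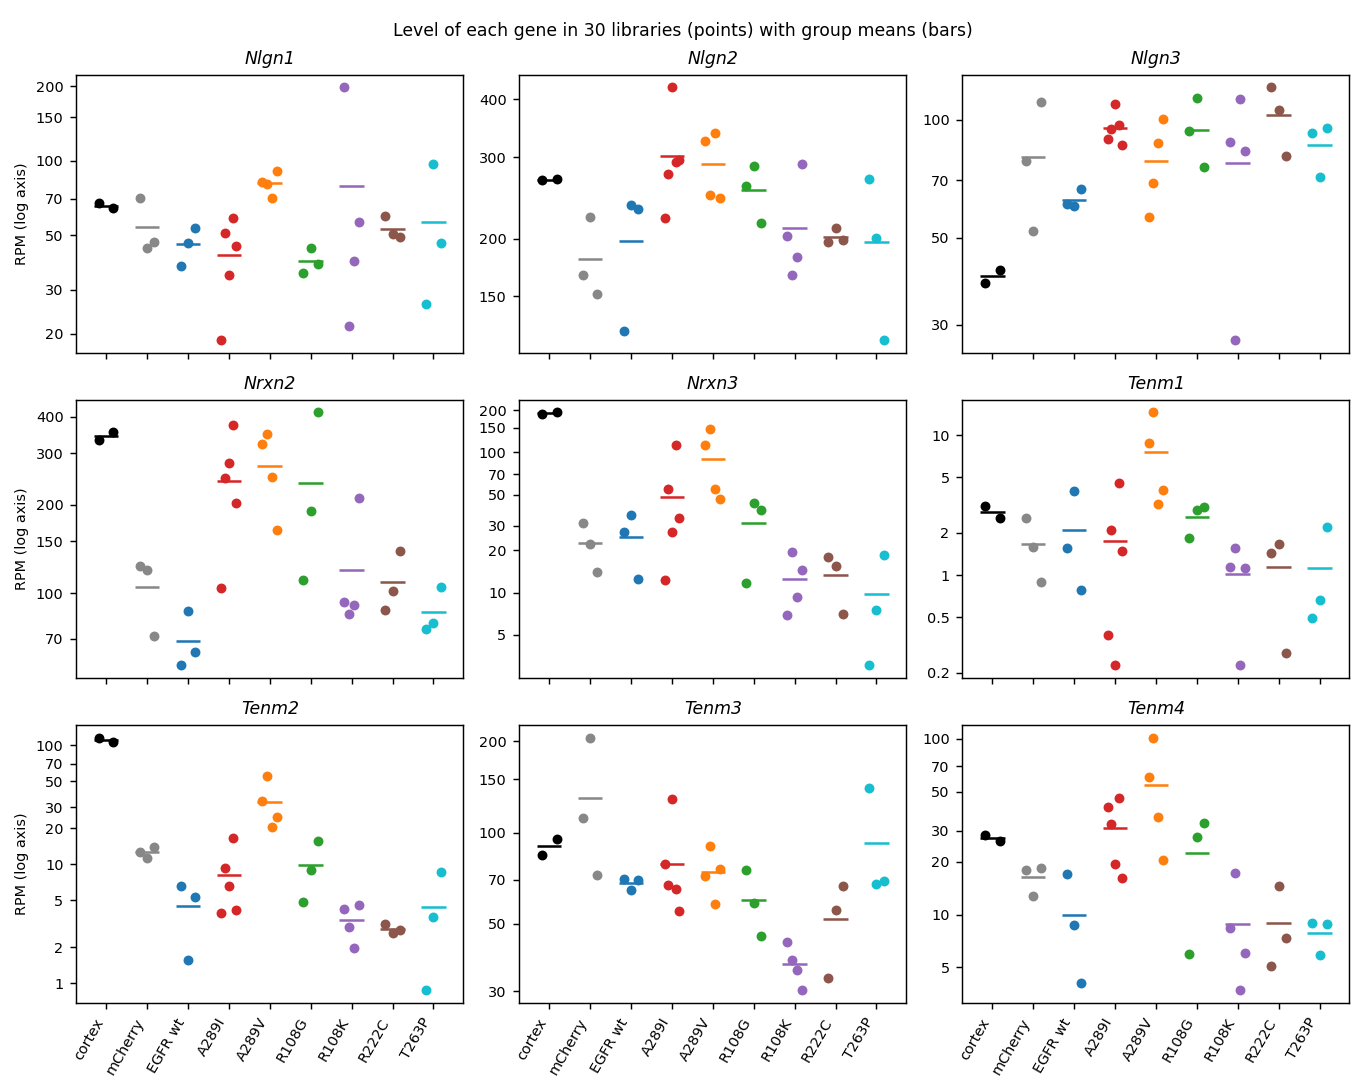
RPM (log axis, its range differing between panels) of the 9 genes in each of the 30 libraries, by group; points are libraries and bars group means. Nrxn3 and Tenm2 lie below both cortex libraries in all 28 tumours, Nlgn3 lies above both in 27 of 28, and the A289V tumours hold the highest Tenm1, Tenm2 and Tenm4 means among the tumour groups.

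Per kilobase of annotated exon, the scale on which different genes can be set side by side, Nlgn2 was the most abundant of the 9 genes and Tenm1 the least. Over the 28 tumours the levels were 40.8 ± 11.6 RPM per kb for Nlgn2 (mean ± SD, n = 28, as for the next values), 11.9 ± 7.48 for Nrxn2, 9.17 ± 2.34 for Nlgn3 and 7.13 ± 3.57 for Tenm3. Below these stood Nlgn1 with 4.24 ± 2.52 RPM per kb, Nrxn3 with 2.72 ± 2.8018, Tenm4 with 1.03 ± 1.01, Tenm2 with 0.905 ± 1.02 and Tenm1 with 0.139 ± 0.167. Only Nlgn2 stood clear of its neighbour in this order by more than their SDs, and every other pair of neighbours overlapped. In cortex the order began Nlgn2 (46.4 ± 0.169 RPM per kb, n = 2), Nrxn2 (24.8 ± 1.08), Nrxn3 (15.1 ± 0.324) and Tenm2 (9.69 ± 0.597), and Nlgn3 stood below Nlgn1 (4.30 ± 0.226 against 4.90 ± 0.175). Nrxn3 and Tenm2 thus ranked lower among the 9 genes in the tumours than in cortex, and Nlgn3 ranked higher. With the longest annotated transcript as the length, Nrxn2 came to 24.6 ± 15.5 RPM per kb in the tumours and kept its second place, but then overlapped Nlgn2 (42.4 ± 12.1). Counts of a neurexin sum over its alternative starts, so its long and short forms cannot be told apart. All members but Nlgn2 overlap 1 to 11 other annotated genes (GENCODE M21, mm10), and whether the counting used strand is not given in the sources used here, so reads of such neighbours may be included.

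Nlgn3 (mm10 chromosome X, 101299168 to 101325963, plus strand), the neuroligin of excitatory and inhibitory synapses, was higher in the tumours than in cortex. It read 38.3 and 41.3 RPM in the cortex libraries, 78.3, 51.9 and 111 RPM in the mCherry tumours and 60.8, 60.3 and 66.6 RPM in the EGFR wild-type tumours. The A289I tumours had 89.1, 94.7, 109.9, 97.0 and 86.009 RPM, the A289V tumours 56.6, 69.0, 87.3 and 100.4 RPM and the R108G tumours 93.7, 114 and 75.6 RPM. R108K tumours had 87.8, 27.4, 113 and 83.0 RPM, R222C tumours 121, 106 and 80.9 RPM and T263P tumours 92.7, 71.2 and 95.1 RPM. R108K library 2 was the only tumour below cortex, and the tumour groups overlapped one another. Against cortex, Nlgn3 rose in the mean of the 7 receptor groups by 1.03 ± 0.31 (log2 fold change of RPM + 1 ± SE; limma, adjusted p = 0.00777), a 2.04-fold difference. In the mCherry tumours alone the difference was 0.93 ± 0.38 (adjusted p = 0.0556) and did not pass. All 3 libraries lay above both cortex libraries, as for 32.7% of all tested genes. This difference passed in 6 of 13 other settings, among them edgeR (adjusted p = 0.0372) and DESeq2 (adjusted p = 0.0245). The other settings called up to 8713 of all tested genes there. Here and below such an upper count is the highest over all other settings. The count of edgeR or DESeq2 alone is not given. The Nlgn3 difference also passed without mCherry library 2 (1.21, adjusted p = 0.0244), R108K library 2 (adjusted p = 0.00899) or R108K library 3 (adjusted p = 0.0430). Markers of oligodendrocyte precursor cells, which express Nlgn3, moved the same way: 10 of 12 rose in the receptor groups against cortex, with summed levels of 1606 to 1649 RPM in cortex and 2721 to 10542 RPM in the tumours. Over the 28 tumours Nlgn3 and that marker mean had r = 0.49 (permutation p = 0.00673, adjusted over 63 relations 0.0303; rho = 0.47, permutation p = 0.0112, adjusted 0.0471), 0.42 without the 2 tumours farthest from the median. Within the 3 ranges of library numbers r was 0.15, 0.20 and 0.06, so the relation did not hold within ranges, while with group means removed it was 0.54. Other marker lists also rose in the receptor groups against cortex: 7 of 12 microglia and macrophage markers (1 fell) and 7 of 9 T and NK cell markers. Of all tested genes 22.9% rose there. The part of any of these cells in the rise of Nlgn3 was not tested.

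Nlgn2 (mm10 chromosome 11, 69823122 to 69837784, minus strand), the neuroligin of inhibitory synapses, did not pass in either comparison with cortex. Its levels were 268 and 269 RPM in cortex and 121 to 425 RPM in the tumours, 19 of which lay below both cortex libraries and 9 above. The difference from cortex was -0.59 ± 0.31 in the mCherry tumours (adjusted p = 0.142) and -0.24 ± 0.25 in the receptor groups (adjusted p = 0.460), with 95% intervals of -1.24 to 0.06 and -0.76 to 0.29. Among the tumour groups A289I had the highest mean, 301.98 ± 74.985 RPM (SD, n = 5), and mCherry the lowest, 180.4 ± 37.7 RPM (n = 3). Over the tumours Nlgn2 followed the markers of myelinating oligodendrocytes (r = 0.62, permutation p = 0.000540, adjusted 0.00378; rho = 0.70, permutation p = 5.00e-05, adjusted 0.000630). The coefficient was 0.68 without the 2 farthest tumours, 0.14, 0.73 and 0.65 within the 3 ranges, and 0.27 with group means removed. Like Nlgn3, Nlgn2 also followed the oligodendrocyte precursor markers (r = 0.51, permutation p = 0.00553, adjusted 0.0303). Its rho with them was 0.58 (permutation p = 0.00114, adjusted 0.00653). That r was 0.67 without the 2 farthest tumours, 0.28, 0.15 and 0.92 within the 3 ranges, and 0.49 with group means removed.

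Nlgn1 (mm10 chromosome 3, 25426215 to 26332460, minus strand), the neuroligin of excitatory synapses, read 67.4 and 64.1 RPM in cortex and 18.8 to 198 RPM in the tumours, 21 of which lay below both cortex libraries and 7 above. Neither difference from cortex passed: -0.31 ± 0.57 in mCherry tumours (adjusted p = 0.6996) and -0.38 ± 0.46 in the receptor groups (adjusted p = 0.514). The highest tumour value, 198 RPM, was that of R108K library 1, the library with the fewest reads, and the other R108K libraries had 21.4, 39.4 and 56.6 RPM. The A289V tumours had the highest group mean, 80.9 RPM (n = 4), and were close together, at 81.8, 80.8, 70.6 and 90.5 RPM.

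Both neurexins, which encode presynaptic receptors for neuroligins, fell against cortex. Nrxn3 (mm10 chromosome 12, 88722876 to 90334935, plus strand) read 187 and 193 RPM in cortex, 31.2, 22.3 and 14.0 RPM in the mCherry tumours and 26.955, 35.6 and 12.6 RPM in the EGFR wild-type tumours. It read 12.3, 54.9, 27.1, 113 and 34.2 RPM in A289I, 113, 147, 54.9 and 46.6 RPM in A289V and 11.7, 43.7 and 38.8 RPM in R108G tumours. The remaining groups were the lowest, with 6.90, 19.4, 9.36 and 14.5 RPM in R108K, 17.8, 15.4 and 7.03 RPM in R222C and 3.04, 7.58 and 18.5 RPM in T263P tumours. Every tumour lay below both cortex libraries, while the tumour groups overlapped. Nrxn3 fell by 3.09 ± 0.73 on the log2 scale in the mCherry tumours (limma, adjusted p = 0.00207; 8.51-fold lower) and fell by 3.06 ± 0.59 in the receptor groups (adjusted p = 0.000183).

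Nrxn2 (mm10 chromosome 19, 6418731 to 6544169, plus strand) read 332 and 353 RPM in cortex, 124, 120.1 and 71.4 RPM in mCherry and 56.8, 86.6 and 63.0 RPM in EGFR wild-type tumours. Its A289I values were 104, 247, 277, 374 and 203 RPM, its A289V values 322, 348, 249 and 165 RPM and its R108G values 111, 190.3 and 413 RPM. In R108K tumours it read 93.5, 85.2, 90.8 and 211 RPM, in R222C tumours 87.8, 102 and 139 RPM and in T263P tumours 75.4, 79.2 and 105 RPM. The EGFR wild-type tumours had the lowest group mean, and single tumours of A289I and R108G lay above both cortex libraries. Against cortex it fell by 1.74 ± 0.48 in the mCherry tumours (limma, adjusted p = 0.00641; 3.34-fold lower) and fell by 1.33 ± 0.39 in the receptor groups (adjusted p = 0.00647), where 22 of 25 libraries were below both cortex libraries.

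Among the teneurins only Tenm2 passed against cortex in the main test. Tenm2 (mm10 chromosome 11, 36006656 to 37235964, minus strand), which binds latrophilin-1 across the synapse, read 116 and 106 RPM in cortex, 12.8, 11.3 and 13.9 RPM in mCherry and 6.62, 1.56 and 5.30 RPM in EGFR wild-type tumours. It read 3.86, 9.25, 6.5983, 16.8 and 4.08 RPM in A289I, 34.2, 54.7, 20.5 and 24.9 RPM in A289V and 4.80, 8.91 and 15.6 RPM in R108G tumours. In R108K tumours it read 4.22, 2.95, 1.96 and 4.53 RPM, in R222C tumours 3.13, 2.62 and 2.77 RPM and in T263P tumours 0.868, 3.59 and 8.63 RPM. All tumours lay below both cortex libraries, and the A289V tumours lay above every other tumour. Tenm2 fell by 3.04 ± 0.59 in the mCherry tumours (limma, adjusted p = 0.000357; 8.24-fold lower) and fell by 3.98 ± 0.48 in the receptor groups (adjusted p = 5.98e-07; 15.8-fold lower), the largest difference from cortex among the 9 genes in the receptor groups.

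Tenm3 (mm10 chromosome 8, 48227682 to 48843951, minus strand), a teneurin that guides the wiring of visual and hippocampal circuits, read 84.6 and 95.3 RPM in cortex, 112, 206 and 72.5 RPM in mCherry and 70.5, 64.8 and 69.8 RPM in EGFR wild-type tumours. The A289I tumours had 78.6, 67.2, 129, 64.9 and 55.2 RPM, A289V 72.0, 90.6, 58.1 and 76.0 RPM and R108G 75.1, 58.6 and 45.6 RPM. The R108K tumours had 43.7, 38.0, 35.2 and 30.2 RPM, R222C 33.0, 55.6 and 66.6 RPM and T263P 140.4, 67.5 and 69.3 RPM. The mCherry group held the highest library and R108K the lowest, and mCherry spread widely. Its differences from cortex were 0.40 ± 0.38 in mCherry (adjusted p = 0.429) and -0.53 ± 0.31 in the receptor groups (adjusted p = 0.158). The latter passed in 1 of 14 other settings.

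Tenm4 (mm10 chromosome 7, 96171246 to 96911093, plus strand), known for its part in oligodendrocyte maturation and myelination, read 28.4 and 26.3 RPM in cortex, 17.9, 12.8 and 18.4 RPM in mCherry and 16.967, 8.75 and 4.05 RPM in EGFR wild-type tumours. It read 41.2, 32.8, 19.3, 45.8 and 16.1 RPM in A289I, 60.3, 102, 35.9 and 20.5 RPM in A289V and 5.95, 27.7 and 33.1 RPM in R108G tumours. Lower values were found in R108K (8.43, 17.2, 3.70 and 6.03 RPM), R222C (5.06, 14.6 and 7.31 RPM) and T263P (8.99, 5.85 and 8.84 RPM). The A289V and A289I group means lay above that of cortex and the other tumour means below it. Tenm1 (mm10 chromosome X, 42527866 to 43429126, minus strand) was scarce: 3.09 and 2.55 RPM in cortex, from 18 reads in each library, and 0.226 to 14.5 RPM in the tumours, the lowest from 1 to 3 reads. Neither gene passed against cortex in the mCherry tumours or in the receptor groups (limma). In the receptor groups Tenm4 was -0.91 ± 0.54 (adjusted p = 0.172) and Tenm1 -0.44 ± 0.47 (adjusted p = 0.461). Tenm4 fell there in 2 of 14 other settings.

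Counted together, 3 of the 9 genes fell in the mCherry tumours against cortex and none rose, where 20.5% of all tested genes fell and 17.8% rose (38.3% called). In the mean of the receptor groups 3 fell and 1 rose, where 24.3% of all tested genes fell and 22.9% rose (47.2% called), so the shares of the 9 genes lay near the background. Both comparisons use the same 2 cortex libraries. All 28 tumours lay below both for 2 of the 9 genes (Nrxn3 and Tenm2), as for 14.8% of all tested genes, and the 3 mCherry tumours did so for 5 of 9 (33.7% of all). The median difference of the 9 genes was -0.59 and -0.53 in the 2 comparisons, against 0.01 and 0.03 over all tested genes. Leaving out either cortex library ended the calls of Nlgn3 (adjusted p = 0.0966 and 0.0671) and Nrxn2 (0.0635 and 0.0827) in the receptor groups, and leaving out cortex library 2 that of Nrxn2 in the mCherry tumours (0.0541); the lone cortex library is then assumed to vary like the other groups. Within the range of library numbers that holds cortex and 12 tumours, Nlgn3 (1.09), Nrxn2 (-1.58), Nrxn3 (-3.47) and Tenm2 (-4.07) were called the same way, and Tenm4 fell as well (-1.496, adjusted p = 0.0259). No range holds both mCherry and cortex; with a term for the ranges Nrxn3 (-3.34) and Tenm2 (-3.08) stayed called, Nrxn2 did not (-1.39, adjusted p = 0.109), and Nlgn3 rose (1.28, adjusted p = 0.0336).

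**Figure D2:**
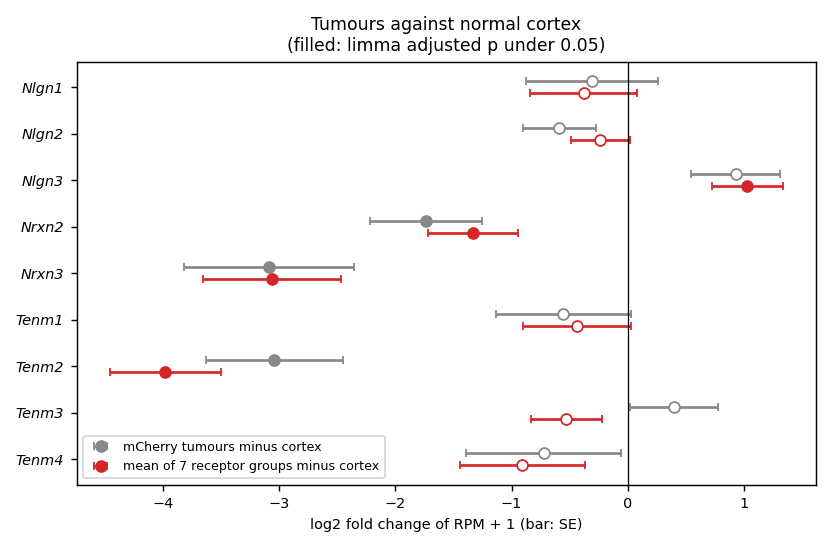
Log2 fold change of RPM + 1 (bars: SE) of the 9 genes against normal cortex, in grey for the 3 mCherry tumours and in red for the mean of the 7 receptor groups; filled points passed limma's adjusted p of 0.05. Nrxn2, Nrxn3 and Tenm2 lie to the left in both comparisons, Tenm2 furthest at -3.98 in the receptor groups, and Nlgn3 lies to the right, at 0.93 and 1.03.

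Neuron markers fell with Nrxn2, Nrxn3 and Tenm2: 19 of 20 fell in the mCherry tumours against cortex and 20 of 20 in the receptor groups, with medians of -3.36 and -3.65 on the log2 scale. With the mean of these markers as a covariate (its 20 genes left out of the test), Tenm2 was still lower in the receptor groups than in cortex (-1.84, adjusted p = 0.00657). Under the same covariate Nrxn3 came to -0.65 (adjusted p = 0.532), Nrxn2 to -0.36 (adjusted p = 0.717) and Nlgn3 to 0.87 (adjusted p = 0.249). In the mCherry tumours none of the 9 genes passed with the covariate, Tenm2 at -1.07 having adjusted p = 0.134. Over all tested genes the other settings called as few as 1507 in the receptor groups (7468 in the main test) and 1494 in the mCherry tumours (6061). The covariate itself differs between cortex and every tumour, so group and covariate cannot be fully told apart.

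Whether EGFR changes these genes beyond what the control tumours show was addressed by the comparison with mCherry. Averaged over the 7 receptor groups, none of the 9 genes passed (limma; 0.0379% of all tested genes called, 6 in all); 2 had an unadjusted p under 0.05, DESeq2 called 1 and edgeR none. Tenm2 was -0.94 ± 0.40 (adjusted p = 0.634), with 19 of 25 receptor libraries below all 3 mCherry libraries and 6, among them the 4 A289V libraries, above. For Tenm3 the difference was -0.93 ± 0.25 (adjusted p = 0.319), with 19 of 25 below all mCherry libraries and none above. DESeq2 called this gene (adjusted p = 0.0267), in a comparison where the other settings called up to 102 of all tested genes. The Tenm3 difference was -0.53 without mCherry library 2, the highest and one of those with high Met, and -1.28 without mCherry library 3. It was -1.36 within library numbers below 20 and -0.12 above 37. The other 7 genes differed by -0.18 (Tenm4) to 0.40 (Nrxn2), and their 95% intervals ran at the widest from -1.12 (Tenm4) to 1.07 (Nrxn2).

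Taken 1 form at a time, against the same 3 mCherry libraries, 1 of 63 values passed in limma. Of all tested genes 4.91% were called in A289V, 0.607% in A289I (0.0822% fell), 0.0695% in R108K, 0.0379% in R108G, 0.00632% in T263P (1 gene, which rose) and 0% in EGFR wild type and R222C. At an unadjusted p under 0.05 stood 7 of the 9 genes in A289V, 3 in A289I and 2 in each of the other forms. Tenm3 fell in the R108K tumours by 1.68 ± 0.32 (limma, adjusted p = 0.0376; 3.20-fold lower), where 0.019% of all tested genes fell. All 4 R108K libraries lay below all 3 mCherry libraries for Tenm2 and Tenm3, as for 3.54% of all tested genes. The call was lost without any of mCherry libraries 1 and 2, R108K libraries 1, 3 and 4, A289I libraries 2 and 4, A289V library 1 and either cortex library (adjusted p = 0.0537 to 0.168), and in 7 of 14 other settings. On the recovered reads edgeR (0.0431) and DESeq2 (0.000140) called it, as adjusted p, where the other settings called up to 204 of all tested genes. Without mCherry library 2, the highest, the difference was -1.28; within the library numbers below 20 it was -1.87 (2 libraries against 2, adjusted p = 0.881). R222C tumours had Tenm3 at -1.24 ± 0.34 (adjusted p = 0.332) and Tenm2 at -1.83 ± 0.53 (adjusted p = 0.357), with no overlap with mCherry for either gene, and did not pass. DESeq2 called Tenm3 there (adjusted p = 0.0453) and edgeR did not, where the other settings called up to 97 of all tested genes. In EGFR wild-type tumours Tenm2 (-1.45) and Tenm3 (-0.79) lay below all mCherry libraries, and neither passed. That comparison called no gene at all (428 had an unadjusted p under 0.05). For R222C and EGFR wild type, the share of all tested genes lying below all mCherry libraries was not counted.

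A289V tumours lay above mCherry for most of the genes. In 6 of 9 (Nlgn2, Nrxn2, Nrxn3, Tenm1, Tenm2 and Tenm4) all 4 A289V libraries exceeded all 3 mCherry libraries, as in 10.1% of all tested genes. These 6 and Tenm3, which was lower in A289V (-0.69), had an unadjusted p under 0.05, but none passed (4.91% of genes called). Nrxn3 came to 1.87 ± 0.61 (adjusted p = 0.0669), Tenm1 to 1.54 ± 0.48 (adjusted p = 0.0584), Tenm4 to 1.46 ± 0.56 (adjusted p = 0.108) and Nrxn2 to 1.34 ± 0.40 (adjusted p = 0.0504). DESeq2 on the recovered reads called these 4 (Nrxn2 0.0191, Nrxn3 0.0207, Tenm1 0.0463 and Tenm4 0.0322 as adjusted p), and edgeR none of them. Over all tested genes the other settings called from 0 to 3101 in this comparison, against 777 in the main test, and the count of DESeq2 alone is not given. Neuron markers of the A289V tumours summed to 4162 to 13886 RPM, those of the mCherry tumours to 1572 to 4523 RPM.

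The comparison with wild-type EGFR asks what the amino acid change adds, and its calls lay in A289I and A289V, the 2 substitutions of 1 residue. Nrxn2, Tenm2 and Tenm4 rose in A289V tumours, and Nrxn2 rose in A289I tumours. In A289V, where 9.69% of all tested genes rose and 3.96% fell (13.7% called), Tenm2 rose by 2.70 ± 0.49 (limma, adjusted p = 0.00679; 6.50-fold), Tenm4 by 2.30 ± 0.56 (adjusted p = 0.0125; 4.92-fold) and Nrxn2 by 1.93 ± 0.40 (adjusted p = 0.00825; 3.80-fold). Nrxn3 (1.77 ± 0.61, adjusted p = 0.0549) and Tenm1 (1.42 ± 0.48, adjusted p = 0.0517) just missed the threshold. DESeq2 called Nrxn3 (adjusted p = 0.0215), where the other settings called up to 4448 of all tested genes. Nlgn3 (0.29) and Tenm3 (0.10) showed the smallest differences. All 4 A289V libraries lay above all 3 EGFR wild-type libraries for 6 of 9 genes (Nlgn1, Nlgn2, Nrxn2, Nrxn3, Tenm2 and Tenm4), as for 14.3% of all tested genes. The median of the 9 genes was 1.42 and that of all tested genes -0.01.

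Neuron markers moved with these genes: 14 of 20 rose in A289V against EGFR wild type, with a median of 2.76, and their sum was 4162 to 13886 RPM against 1082 to 2526 RPM; 5 of 12 astrocyte markers rose as well. Over all tested genes the other settings called from 0 to 4448 in this comparison, against 2160 in the main test. With the marker mean as a covariate no gene of the 9 passed, Tenm2 coming to 1.11, Tenm4 to 1.31 and Nrxn2 to 1.203 (adjusted p = 0.842, 0.894 and 0.842). Without A289V libraries 1 and 2, which had the highest neuron markers, the differences were 2.25, 1.55 and 1.57 in the same order and none passed (adjusted p = 0.298, 0.367 and 0.341). Without EGFR wild-type libraries 1 and 2 and mCherry library 2, those with high Met, they were 2.36, 3.23 and 2.03, and again none passed. Single libraries ended the call of Tenm2 (EGFR wild-type library 2, adjusted p = 0.0506) and of Tenm4 (A289V library 2 and EGFR wild-type libraries 2 and 3, adjusted p = 0.0657, 0.0612 and 0.0523), and none that of Nrxn2. Within library numbers below 20 (1 A289V library against 2) the values of Tenm2, Tenm4 and Nrxn2 were 2.99, 2.21 and 2.18, and within 20 to 37 (3 against 1) 2.32, 3.10 and 1.93. None passed within a range, where single libraries are assumed to vary like the other groups.

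In A289I tumours, where 0.335% of all tested genes were called (0.221% rose and 0.114% fell), Nrxn2 rose by 1.70 ± 0.38 against EGFR wild type (limma, adjusted p = 0.0498; 3.25-fold), with all 5 libraries above all 3, as for Nlgn3 and for 4.55% of all tested genes. This p lay at the threshold: leaving out any of 24 of the 30 libraries ended the call (adjusted p = up to 0.211, without EGFR wild-type library 1), as did 8 of 13 other settings. Among these settings were the neuron markers as a covariate and leaving out the libraries with high Met. All A289I libraries are numbered above 37 and no EGFR wild-type library is; with a term for the ranges the difference was 2.496 (adjusted p = 0.646). Tenm4 in A289I was 1.63 ± 0.54 (adjusted p = 0.192) and Nrxn2 in R108G 1.59 ± 0.43 (adjusted p = 0.364), neither past the threshold. R108G, R108K, R222C and T263P called none of the tested genes against EGFR wild type in limma, although 1, 1, 0 and 1 of the 9 genes had an unadjusted p under 0.05 (1347, 861, 796 and 622 of all tested genes). Of the 9, DESeq2 called Nrxn2 in R108G (adjusted p = 0.0187) and edgeR none, where the other settings called up to 95 of all tested genes. In R108K the gene with an unadjusted p under 0.05 was Tenm3 (-0.89 ± 0.32). All 4 libraries lay below the EGFR wild-type libraries, and the share of all tested genes doing so was not counted.

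A289I was compared directly with A289V and R108G with R108K, since each pair changes 1 residue to different amino acids. All A289I and R108G libraries are numbered above 37, and no A289V or R108K library is. In both pairs the amino acid and the range of library numbers therefore cannot be told apart. No tested gene passed between A289I and A289V in limma (2872 had an unadjusted p under 0.05, among them 3 of the 9), and edgeR and DESeq2 called none of the 9. Tenm2 was -2.001 ± 0.43 in A289I relative to A289V (adjusted p = 0.0899; 95% interval -2.90 to -1.10). All 5 A289I libraries lay below all 4 A289V libraries, as for 2 of the 9 genes (Nlgn1 the other) and 2.76% of all tested genes. Tenm1 (-1.68 ± 0.43, adjusted p = 0.107) and Nlgn1 (-1.03 ± 0.42, adjusted p = 0.186) were also lower in A289I by values that did not pass. Nrxn2, raised in both forms against EGFR wild type, differed between them by -0.23 ± 0.35 (95% interval -0.96 to 0.51). Between R108G and R108K no tested gene passed either (1569 had an unadjusted p under 0.05, among them 3 of the 9), and edgeR and DESeq2 called none of the 9. Tenm2 was 1.201 ± 0.49, Tenm1 0.88 ± 0.48 and Tenm3 0.67 ± 0.32 higher in R108G (adjusted p = 0.451, 0.549 and 0.494), without overlap. The share of all tested genes without overlap was not counted for this pair.

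**Figure D3:**
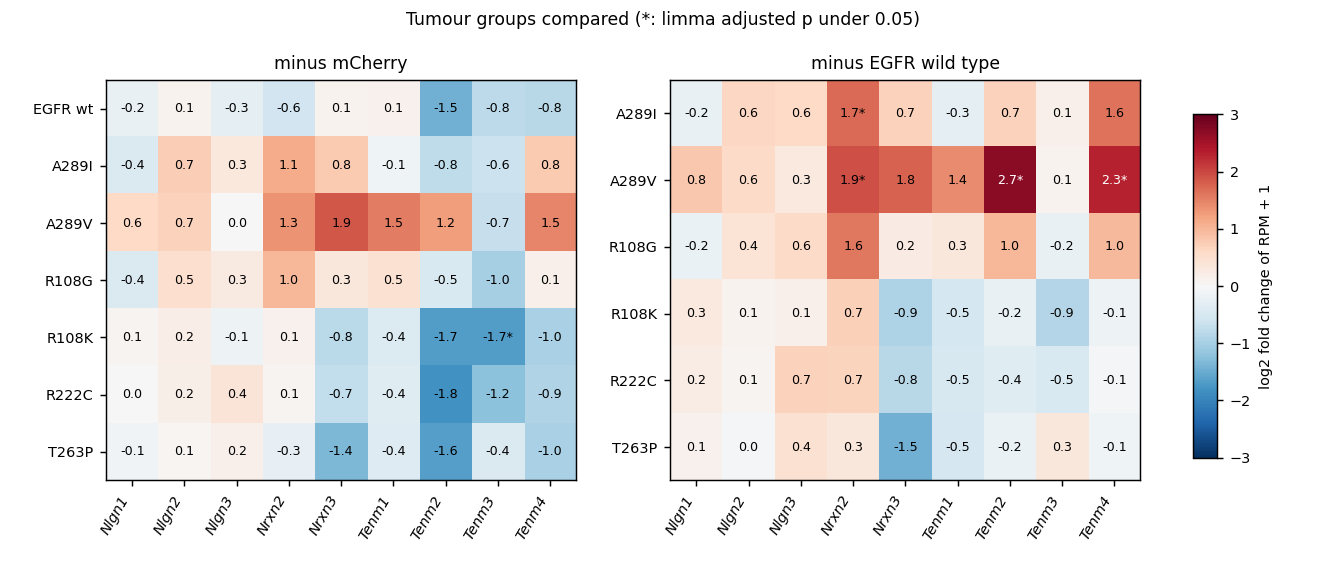
Log2 fold change of RPM + 1 of the 9 genes in each receptor group against mCherry (left) and in each variant against EGFR wild type (right), with the value in each cell and an asterisk where limma's adjusted p was under 0.05. Tenm2 and Tenm3 are below mCherry in most receptor groups, with 1 asterisk at Tenm3 in R108K, and Nrxn2, Tenm2 and Tenm4 in A289V and Nrxn2 in A289I carry the 4 asterisks against EGFR wild type.

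Across the 8 tumour groups at once, 6 of the 9 genes differed in limma's F-test (Nrxn2, Nrxn3, Tenm1, Tenm2, Tenm3 and Tenm4; 10.3% of all tested genes did), and none of the neuroligins did. The adjusted p was 0.00603 for Tenm2, 0.0133 for Nrxn2, 0.0154 for Tenm4, 0.0162 for Nrxn3, 0.0226 for Tenm3 and 0.0459 for Tenm1. For Nlgn2 it was 0.147, for Nlgn3 0.576 and for Nlgn1 0.576. Without A289V library 1, or without library 2, Nrxn2 and Tenm2 passed and the other 4 did not. Without both libraries none of the 9 passed (Tenm2 adjusted p = 0.110), and none did with the neuron markers as a covariate (Tenm3 adjusted p = 0.0972, the lowest). Over all tested genes the other settings called from 2 to 5876 in the F-test, against 1633 in the main test. Tenm1 also lost its call without 19 of the 30 libraries in turn. The SD of log2(RPM + 1) over the 28 tumours was 1.25 for Nrxn3, 1.19 for Tenm2, 1.15 for Tenm4, 0.87 for Tenm1 and 0.84 for Nrxn2. It was 0.67 for Nlgn1, 0.61 for Tenm3, 0.44 for Nlgn3 and 0.41 for Nlgn2, against a median of 0.48 over all tested genes, so Nlgn1, which did not pass the F-test, varied more than Tenm3, which did.

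Over the 28 tumours 5 of the 9 genes followed the mean of the 20 neuron markers (63 relations of 9 genes with 7 marker lists; permutation tests with 100000 resamples, adjusted by Benjamini and Hochberg). The coefficient was highest for Tenm2 (r = 0.91, adjusted permutation p = 0.000210, rho = 0.86, adjusted p = 0.000630), followed by Nrxn3 (r = 0.87, adjusted permutation p = 0.000210, rho = 0.81, adjusted p = 0.000630). Tenm1 came next (r = 0.77, adjusted permutation p = 0.000210, rho = 0.68, adjusted p = 0.00147). Tenm4 (r = 0.76, adjusted permutation p = 0.000472, rho = 0.73, adjusted p = 0.000630) and Nrxn2 (r = 0.69, adjusted permutation p = 0.000840, rho = 0.60, adjusted p = 0.00605) followed. The raw permutation p of Pearson's r was 1e-05, the smallest that the resamples can give, for Tenm2, Nrxn3 and Tenm1, 3.00e-05 for Tenm4 and 8.00e-05 for Nrxn2. That of rho was 1e-05, 2.00e-05, 0.000140, 3.00e-05 and 0.000960 for the 5 genes in the order named. Leaving out the 2 tumours farthest from the median gave r of 0.86, 0.81, 0.62, 0.63 and 0.60 in the same order. In each of the 3 ranges of library numbers r stayed above 0, at 0.90, 0.96 and 0.74 for Tenm2 and 0.60, 0.97 and 0.94 for Nrxn3. The same 5 genes had r of 0.51 (Tenm1) to 0.67 (Tenm2) with the astrocyte markers (adjusted permutation p = 0.000840 for Nrxn2 to 0.0303 for Tenm1). That r with group means removed was 0.66 for Tenm2, 0.48 for Nrxn3, 0.32 for Tenm1, 0.26 for Nrxn2 and 0.19 for Tenm4. With the myelinating oligodendrocyte markers r was 0.50 for Tenm4 (adjusted permutation p = 0.0303) and 0.49 for Nrxn2 (adjusted permutation p = 0.0320). By rho the adjusted permutation p was 0.0189 and 0.0620, and with group means removed r was 0.22 and -0.04. With group means removed, r with the neuron markers was 0.86 for Tenm2, 0.76 for Nrxn3, 0.60 for Tenm1, 0.47 for Nrxn2 and 0.46 for Tenm4.

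Nlgn1 did not pass (r = 0.43, adjusted permutation p = 0.0884, rho = 0.45, adjusted p = 0.0628, raw permutation p = 0.0239 and 0.0169). Within the 3 ranges its r was 0.26, 0.77 and 0.76. With group means removed it was 0.46, near Tenm4 (0.46) and Nrxn2 (0.47). With the T and NK cell markers Nlgn1 had rho = -0.56 (adjusted permutation p = 0.00969) and r = -0.44 (adjusted permutation p = 0.0669). That r was -0.34 with group means removed. For Nlgn2 r with the neuron markers was 0.20 (permutation p = 0.295), for Nlgn3 -0.04 (permutation p = 0.837) and for Tenm3 0.02 (permutation p = 0.908). By the threshold on adjusted p alone, both neurexins, Tenm1, Tenm2 and Tenm4 tracked neuron markers across tumours. For the 3 neuroligins and Tenm3 no such relation passed, with Nlgn1 nearest to the threshold. As a description over the same 28 tumours, r between members was 0.85 for Nrxn3 with Tenm1, 0.79 for Nrxn3 with Tenm2 and 0.79 for Nrxn3 with Tenm4, whereas Nlgn3 had at most 0.18 with any other member (Nlgn2) and Nlgn1 at most 0.39 (Tenm2). Nlgn2, whose relation with the neuron markers did not pass, had 0.65 with Nrxn2, near the 0.64 of Nrxn2 with Tenm2.

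**Figure D4:**
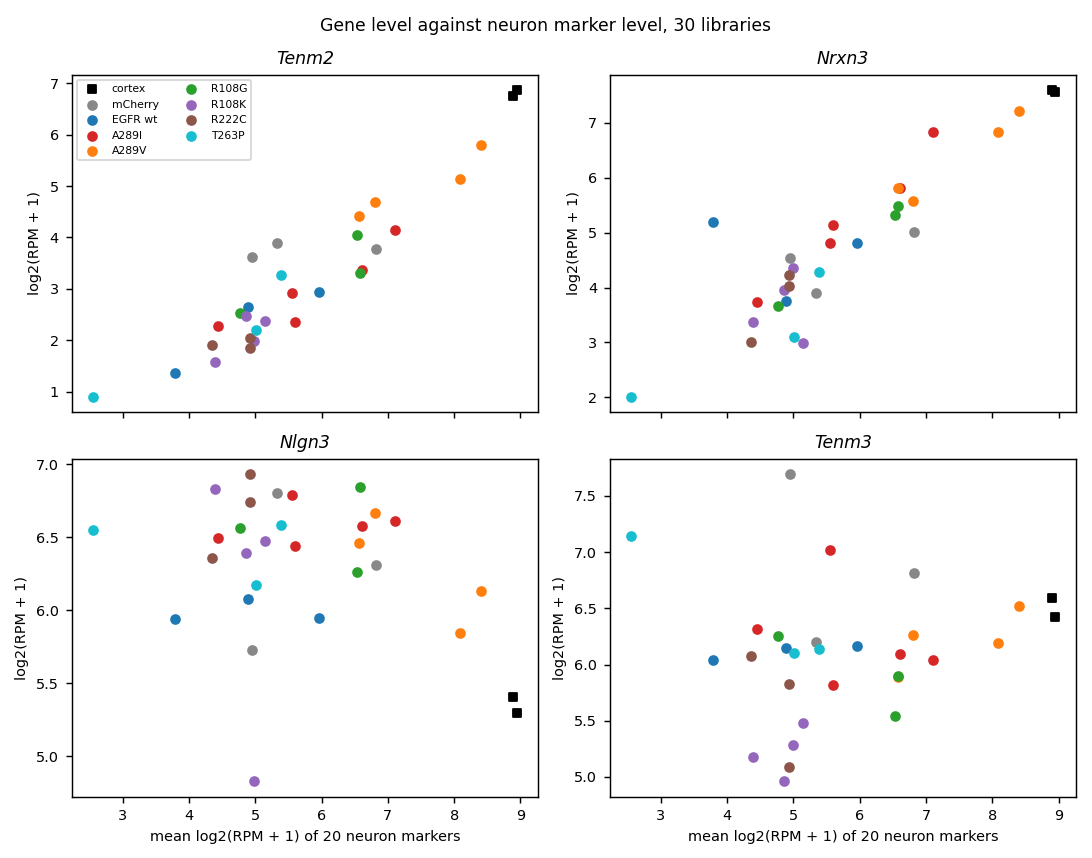
Log2(RPM + 1) of Tenm2, Nrxn3, Nlgn3 and Tenm3 against the mean log2(RPM + 1) of the 20 neuron markers, 1 point per library coloured by group, cortex as black squares. Tenm2 and Nrxn3 climb with the markers (r = 0.91 and 0.87 over the 28 tumours), Nlgn3 and Tenm3 do not (r = -0.04 and 0.02), and the 2 cortex libraries stand at the upper right for Tenm2 and Nrxn3 and low for Nlgn3.

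The genes most like each member over the 28 tumours, by Pearson's r on log2(RPM + 1) among all tested genes, were named as a description; all points share their libraries. For Tenm2 they were Cplx2, which encodes complexin-2 of the release machinery (r = 0.94), Scn8a, a neuronal sodium channel (0.94), and Mkl2 (0.93), and 625 genes had r over 0.8. For Nrxn3 they were Neurl1a (0.95), Slc6a17, a transporter of synaptic vesicles (0.94), and Tmem63c (0.94), with 593 genes over 0.8. Among the genes most like Tenm1 were Dnal1 (0.91) and Zbtb4 (0.90). Tenm4 was most like Tspan5 (0.91), Sorl1 (0.90) and Actn1 (0.89), and Nrxn2 like Map4k2 (0.89), Ccdc85b (0.88) and Adora1, an adenosine receptor (0.87). The remaining members had few or no such companions: Nlgn3 had 1 gene over 0.8, the protocadherin Pcdh10 (0.81), followed by Csmd2 (0.72) and Prr12 (0.70). Nlgn2 was nearest to Dct, Dynll2 and Pcyt1b (each 0.79), Nlgn1 to Rab11fip5 (0.74), Rnf24 (0.73) and Tef (0.73), and Tenm3 to Tshz2, Pitpnc1 and Socs5 (0.63, 0.62 and 0.62), with no gene over 0.8 for these 3.

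The partners of these proteins were counted by list, whole lists being used irrespective of how their genes moved. Of all tested genes 20.5% fell and 17.8% rose in the mCherry tumours against cortex, 24.3% fell and 22.9% rose in the receptor groups against cortex, and 9.69% rose in A289V against EGFR wild type. Of 16 ligands of neurexins and partners of neuroligins, 9 fell and none rose in the mCherry tumours against cortex (median -1.44; 0.01 over all tested genes), and 9 fell and 1 rose in the receptor groups (median -1.24). Nxph3, a neurexophilin that binds alpha-neurexins, fell from 80.7 ± 7.47 to 4.75 ± 1.08 RPM (log2 fold change -3.84, adjusted p = 3.04e-06). Clstn3, a calsyntenin that binds neurexins, fell from 546 ± 39.3 to 63.4 ± 24.024 RPM (log2 fold change -3.16, adjusted p = 0.00157). Lrrtm3, a postsynaptic neurexin ligand, fell from 60.5 ± 3.93 to 25.3 ± 12.025 RPM (log2 fold change -1.34, adjusted p = 0.00932). Cbln2, a secreted cerebellin that bridges neurexins to glutamate delta receptors, fell from 36.6 ± 6.79 to 9.18 ± 5.76 RPM (log2 fold change -2.08, adjusted p = 0.0112). These adjusted p and those of the other partner genes are from limma, in the tumours in which Nrxn2 and Nrxn3 fell. Against EGFR wild type, 6 of the 16 rose and none fell in A289V (median 0.98).

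Of the 6 partners of teneurins, 3 fell and 1 rose in the mCherry tumours against cortex (median -1.04), and 4 fell and 1 rose in the receptor groups (median -1.25). Flrt1 fell from 23.8 ± 5.69 to 4.38 ± 3.05 RPM (log2 fold change -2.34, adjusted p = 0.00142), and Flrt2 fell from 79.3 ± 7.64 to 21.3 ± 8.99 RPM (log2 fold change -1.93, adjusted p = 0.00193). Both encode FLRT proteins that join teneurins and latrophilins. Adgrl1, the latrophilin that binds Tenm2, fell from 541 ± 29.7 to 193 ± 45.2 RPM (log2 fold change -1.51, adjusted p = 0.0137). Adgrl3, another latrophilin, rose from 41.9 ± 3.46 to 131 ± 78.3 RPM (log2 fold change 1.47, adjusted p = 0.0214), the opposite direction to Tenm2. In A289V against EGFR wild type 1 of the 6 rose and none fell.

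Scaffolds, the proteins inside the synapse to which neuroligins and neurexins are tethered, had the most negative median of the 6 lists: 17 of 21 fell in the mCherry tumours against cortex, and 1 rose (median -2.03). In the receptor groups 18 of 21 fell and 1 rose (median -2.23). Lin7b, a scaffold of the presynaptic complex with Cask, fell from 76.8 ± 0.413 to 4.34 ± 3.82 RPM (log2 fold change -4.09, adjusted p = 0.000105). Dlg4, which encodes PSD-95, the postsynaptic partner of neuroligins, fell from 969 ± 102 to 141 ± 65.2 RPM (log2 fold change -2.89, adjusted p = 0.000151). Apba1 fell from 182 ± 15.3 to 37.3 ± 18.7 RPM (log2 fold change -2.36, adjusted p = 0.00116). Dlgap1, a protein of the PSD-95 complex, fell from 447 ± 11.9 to 99.3 ± 45.2 RPM (log2 fold change -2.26, adjusted p = 0.00129). In A289V against EGFR wild type 14 of the 21 rose and none fell (median 1.42), beside Nrxn2, Tenm2 and Tenm4. Among 25 other synaptic adhesion genes, 11 fell and 1 rose in the mCherry tumours and 11 fell and none rose in the receptor groups, with medians of -1.08 and -0.95; 9 rose in A289V against EGFR wild type. Cadm2 and Cadm3, synaptic adhesion genes of the immunoglobulin family, fell by 2.68 and 2.43, Lrrc4c, a netrin-G ligand, by 1.79 and Lrfn2 by 2.37 (adjusted p = 2.99e-05, 0.00350, 0.000845 and 0.00390). The neuron markers, given above, fell in the same comparisons and rose in A289V, and their part in the partner counts was not tested.

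Enzymes that cut neuroligins and neurexins from the membrane rose about as often as tested genes in general. Of 7 listed (Adam10, Mmp9 and the genes of the gamma-secretase complex), 1 rose and none fell in the mCherry tumours against cortex, and 2 rose and none fell in the receptor groups, where 17.8% and 22.9% of all tested genes rose. Aph1a, a gamma-secretase subunit, rose from 84.8 ± 4.75 to 148 ± 14.7 RPM (log2 fold change 0.79, adjusted p = 0.0328). Of 6 regulators of neurexin splicing, 3 fell and none rose in the mCherry tumours and 4 fell in the receptor groups, with medians of -1.18 and -1.27. Rbfox1 fell from 264 ± 30.3 to 39.2 ± 39.3 RPM (log2 fold change -3.15, adjusted p = 0.00278). Khdrbs3 fell from 247 ± 2.03 to 92.3 ± 39.6 RPM (log2 fold change -1.49, adjusted p = 0.00988). Rbfox3, which also stands in the neuron marker list, fell from 295 ± 19.3 to 41.7 ± 39.7 RPM (log2 fold change -3.30, adjusted p = 0.0140). In A289V against EGFR wild type 2 splicing regulators rose and 1 fell. Between the receptor groups and mCherry no gene of the 6 partner lists passed: the values nearest to passing in each list ran from -0.78 for Slitrk2 (adjusted p = 0.593) to 0.88 for Ncam1 (adjusted p = 0.291). Between these lay Nxph3 at -0.45, Mdga1 at -0.57, Flrt3 at -0.65, Flrt2 at -0.61, and from the other lists Caskin1 at 0.55, Shank1 at -0.52, Psenen at 0.36, Psen2 at 0.31, Khdrbs2 at -0.58 and Rbfox2 at -0.28.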

How the data were processed

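Bulk polyA RNA of 28 mouse tumours and 2 cortex samples was read from 9 deposited tables, 1 per group, with 1 column per library. The submitters' processing notes name FastQC, STAR 2.5.0a, mm10 and DESeq2 1.20.0 without giving their roles. The deposited values are named RPM, but their columns sum to 9.31 to 12.04 times what RPM would: each is a whole read count divided by 1 size factor per library, a normalised signal, and all values gave whole reads within 0.05 (100%), so the authors' scaling can be undone. They were divided by 1 constant, 10.3, to give RPM. Libraries hold 2784129 to 24475215 reads; intervals from counts would cover counting error only.

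Groups came from the labels. The main test was limma 3.58.1 (R 4.3.3; trend and robust, two-sided) on log2(RPM + 1) with 9 group means over all 30 libraries, on the 15824 genes that reached 1 RPM in 3 or more libraries, with Benjamini-Hochberg adjustment over all of them and a threshold of 0.05. The fold scale understates changes of low genes. The fit was tested on simulated data. Alternatives were other pseudocounts, filters, scalings and library weights, edgeR 4.0.16 and DESeq2 1.42.0 on the recovered reads, a term for library number, neuron markers as a covariate, and libraries left out; the settings within ranges of library numbers and without A289V libraries 1 and 2 were chosen after seeing the data. Tables were joined in Python 3.11.15 with pandas 2.3.3, numpy 2.4.6 and scipy 1.17.1.

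The members, partner lists and markers were chosen with earlier results of these data known. Named by rule were all 9 members, up to 4 called genes of each partner list with the smallest adjusted p against cortex (mCherry), or the 2 with the smallest p where none passed (receptor groups against mCherry), and the 3 genes most like each member, predicted loci passed over. One result by this rule is not reported here.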

Additional observations from a re-analysis of the deposited data

Results flagged for a closer look

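Nrxn2 in R108K library 4 stood at 211 RPM, while the other 3 R108K libraries lay between 85.2 and 93.5 RPM. Its gap to the nearest of the others was 0.934 of the group's range, above Dixon's 95% critical value for 4 samples. It was the only such value among 27 sets of a gene and a group of 4 or 5 libraries, and chance flags about 1 in 20 groups.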

How the results depend on the processing

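Counts of the 9 genes called moved as follows, and the cause was not tested. Counts over all tested genes moved with the settings as well. They ran from 1494 to 8713 in mCherry against cortex (6061 in the main test). In the receptor groups they ran from 1507 to 12027 against cortex (7468) and from 0 to 102 against mCherry (6). In A289V they ran from 0 to 3101 against mCherry (777) and from 0 to 4448 against EGFR wild type (2160), and in the F-test from 2 to 5876 (1633). In the mCherry tumours against cortex (3 called), library weights gave 5, the neuron covariate 0, and leaving out 1 library 2 to 4. In the receptor groups against cortex (4), these gave 8, 1 and 2 to 4. In the receptor groups against mCherry (0), DESeq2 gave 1 and leaving out 1 library 0. Over the 7 forms against mCherry (1), no filter, the term for library number, only the groups compared, leaving out EGFR wild-type 1 and 2 with mCherry 2, and leaving out A289V 1 and 2 each gave 0; a filter of 5 RPM and leaving out R108G 1 and 3 with T263P 2 gave 2; library weights and DESeq2 gave 6; and leaving out 1 library gave 0 to 5. Over the variants against EGFR wild type and the 2 pairs (4), library weights gave 11, only the groups compared 2, the neuron covariate, leaving out EGFR wild-type 1 and 2 with mCherry 2 and leaving out A289V 1 and 2 each 0, and leaving out 1 library 1 to 7. In the F-test (6), the neuron covariate and leaving out A289V 1 and 2 gave 0, and leaving out 1 library 2 to 6. Nrxn2 came to 24.6 RPM per kb by its longest transcript and 11.9 by all exons.

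Under the alternatives run no called difference changed direction; the values that did were not called. With the neuron covariate these were, in mCherry against cortex, Nlgn1 0.73, Tenm1 0.80, Tenm3 -0.11 and Tenm4 0.51, in the receptor groups against cortex Nlgn1 0.74, Tenm1 1.04 and Tenm4 0.43, and against mCherry Nlgn1 0.0126. Against mCherry, Nlgn1 also turned with DESeq2 (0.0116) and below number 20 (0.11). Nlgn3 turned with library weights (-0.0268), the term for library number (-0.18), without EGFR wild-type 1 and 2 and mCherry 2 (-0.17), below 20 (-0.20) and above 37 (-0.24). Nrxn3 turned without those libraries (-0.0618) and without A289V 1 and 2 (-0.0684), and Tenm4 with the term (0.36), below 20 (0.45) and above 37 (0.29). Leaving out 1 library gave -0.20 to 0.13 for Nlgn1, -0.18 to 0.36 for Nlgn3, -0.26 to 0.29 for Nrxn3 and -0.11 to 0.35 for Tenm1. No paired analysis was possible because the labels give no replicate numbers shared between groups. Depth limits Tenm1 most, with 1 to 74 reads per library.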
